A study of Mus musculus with 6 samples.

Results

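Splicing regulators and neuronal RNA-binding proteins were followed in ribosome-bound RNA of mouse cortex. The genes are those whose single symbol in the platform annotation starts with Hnrnp, Srsf, Celf, Elavl, Rbfox, Mbnl, Ptbp, Tra2 or Khdrbs, or is Nova1 or Nova2. The annotation named 55 such genes, and 53 of them reached a mean intensity of 50 in at least 1 of the groups, among 10830 genes that did so. The probe set of highest mean over the 6 arrays stood for each gene. Ptbp1 and Mbnl3 did not reach the filter. Ptbp1 lay between 24.0 and 42.9, and Mbnl3 between 7.02 and 11.1. The member just inside the filter was Celf3, with means of 66.0 on the fluoxetine-titled and 55.4 on the vehicle-titled arrays. All 53 reached 50 in both groups.

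Members of these families bind nuclear or cytoplasmic RNA at short sequence elements. SR proteins (Srsf genes) and their relatives Tra2a and Tra2b mostly promote the use of exons that carry their binding sites, while many hnRNPs and the polypyrimidine tract proteins (Ptbp genes) mostly repress exons. Rbfox, Nova, Celf and Mbnl proteins promote or repress an exon depending on where they bind around it. The Elavl2, Elavl3 and Elavl4 products, known as neuronal Hu proteins, stabilise AU-rich messages and regulate splicing in neurons. Loss of Ptbp1 and gain of Ptbp2 is a known switch of neuronal differentiation, and Rbfox3 encodes the antigen NeuN used to stain neurons.

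The RNA came from cortex of the DU9 line of Glt25d2 bacTRAP mice, 1 transgenic line crossed from FVB to C57BL/6 for 3 to 5 generations. In bacTRAP mice a tagged ribosomal protein is expressed from a bacterial artificial chromosome of the driver gene, and translating ribosome affinity purification (TRAP) recovers RNA bound to tagged ribosomes. Glt25d2, now named Colgalt2, labels pyramidal cells of layer 5, and every array carries this transgene. The fluoxetine-titled group drank 0.167 mg/ml fluoxetine, an antidepressant that blocks serotonin reuptake, in 1% saccharine for 15 to 18 days. The vehicle-titled group drank 1% saccharine alone for the same time. Each group has 3 arrays, numbered 1 to 3, from independent purifications, and the labels used here do not state an age or the number of mice behind each purification. The title, source and treatment fields of a sample all name 1 treatment, while the short description carries the other treatment. Titles decide the groups here. Were the descriptions right instead, all treatment differences would change sign and keep their p.

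The arrays had median intensities between 23.1 and 23.5, and their number limits the precision of every difference. The 2 arrays numbered 1, from both groups, stood apart from the other 4: the first principal component of the log2 intensities, 60.0% of the variance, placed them at -42.5 (fluoxetine-titled) and -37.6 (vehicle-titled), against 18.3 to 22.3. What a replicate number stands for is not given in the sources used here. Markers of layer 5 projection neurons were present on every array, with 9 of 10 listed genes above the filter and Etv1 not kept. Their sums were 52593 and 56936 on the number 1 arrays and between 41291 and 51476 on the others. Colgalt2 had 986, 709 and 719 on the fluoxetine-titled arrays, against 891, 828 and 918 on the vehicle-titled arrays. Markers of astrocytes (12 of 12), oligodendrocyte lineage (10 of 11), interneurons (9 of 9), microglia (7 of 10) and vessels (5 of 10) were also above the filter, and in such pooled RNA fewer cells of a type and less RNA per cell cannot be told apart.

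Setting fluoxetine-titled against vehicle-titled arrays asks whether 15 to 18 days of the drug changed these messages on the ribosomes of the labelled cells. No member passed the test. In limma 0 of 53 members had an adjusted p under 0.05, against 0% of 10830 genes, and the smallest adjusted p among members was 1.00. At an unadjusted p under 0.05 there were again 0 members, against 0.591% of genes. With the replicate number as a block there were 0 members past the adjusted threshold, against 0% of genes, and 1 member (Tra2a) at an unadjusted p under 0.05, against 3.41% of genes. The median log2 difference was 0.015 over members and -0.0068 over all genes, with 31 members positive and 22 negative. The 95% confidence interval of the difference lay within 2-fold in either direction for 98.1% of members, and for 96.0% of all genes. It lay within 1.5-fold for 83.0% of members and 66.0% of all genes. Hnrnph1 alone had an interval that reached beyond 2-fold, from -0.96 to 1.04 on the log2 scale. These intervals, and the SEs of treatment differences given below, come from the fit without the replicate block. For Hnrnph1 the SE was 0.43 in that fit and 0.15 with the block.

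The members with the highest differences were Tra2a, Celf3, Srsf9 and Hnrnpl, and each was higher in all 3 same-numbered pairs of arrays. Tra2a, whose protein promotes exons with GAA-rich elements, had 3505, 2719 and 2460.2 on the fluoxetine-titled arrays, against 2925, 1835 and 2066 on the vehicle-titled arrays. The groups overlapped. Its log2 difference was 0.36 ± 0.22 (SE, n = 3 per group), with values of 0.26, 0.57 and 0.25 in pairs 1, 2 and 3. Celf3, a Celf gene expressed mainly in brain, had 54.6, 70.6 and 72.7 on the fluoxetine-titled arrays, against 49.4, 60.0 and 56.9 on the vehicle-titled arrays, a difference of 0.24 ± 0.16. The 3 vehicle-titled values lay between 49.4 and 60.0, and the lowest fluoxetine-titled value, on array 1, fell among them. Srsf9 had 338, 322 and 375 on the fluoxetine-titled arrays, against 323, 239 and 318 on the vehicle-titled arrays, a difference of 0.24 ± 0.16. Its lowest value was that of vehicle array 2, and the other 5 arrays spread over a narrower range. Hnrnpl, whose protein binds CA-rich elements, had 151, 129 and 159 on the fluoxetine-titled arrays, against 133, 103 and 137 on the vehicle-titled arrays, a difference of 0.24 ± 0.16. Vehicle array 2 was again the lowest.

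The members with the lowest differences were Srsf11, Rbfox2, Elavl3 and Hnrnpc. Srsf11, an SR-related splicing factor gene, had 1738, 1291 and 1482 on the fluoxetine-titled arrays, against 1899, 1487 and 1598 on the vehicle-titled arrays, a difference of -0.15 ± 0.17. It was lower in all 3 pairs, although the number 1 array of each group was the highest of its group and the groups overlapped. Rbfox2 had 112, 140.1 and 133 on the fluoxetine-titled arrays, against 129.8, 132 and 163 on the vehicle-titled arrays, a difference of -0.14 ± 0.16, and was higher in pair 2. A further Rbfox2 probe set had the opposite sign (0.12). Elavl3 had 852, 1217 and 1199 on the fluoxetine-titled arrays, against 875, 1369.8 and 1369 on the vehicle-titled arrays, a difference of -0.13 ± 0.23, and a further probe set of it also had the opposite sign (0.14). Hnrnpc, whose protein binds uridine tracts of nascent RNA, had 4943, 4129.6 and 4899 on the fluoxetine-titled arrays, against 5324, 4950.3 and 4941 on the vehicle-titled arrays, a difference of -0.13 ± 0.13. Its second probe set had 0.0020.

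**Figure D1:**
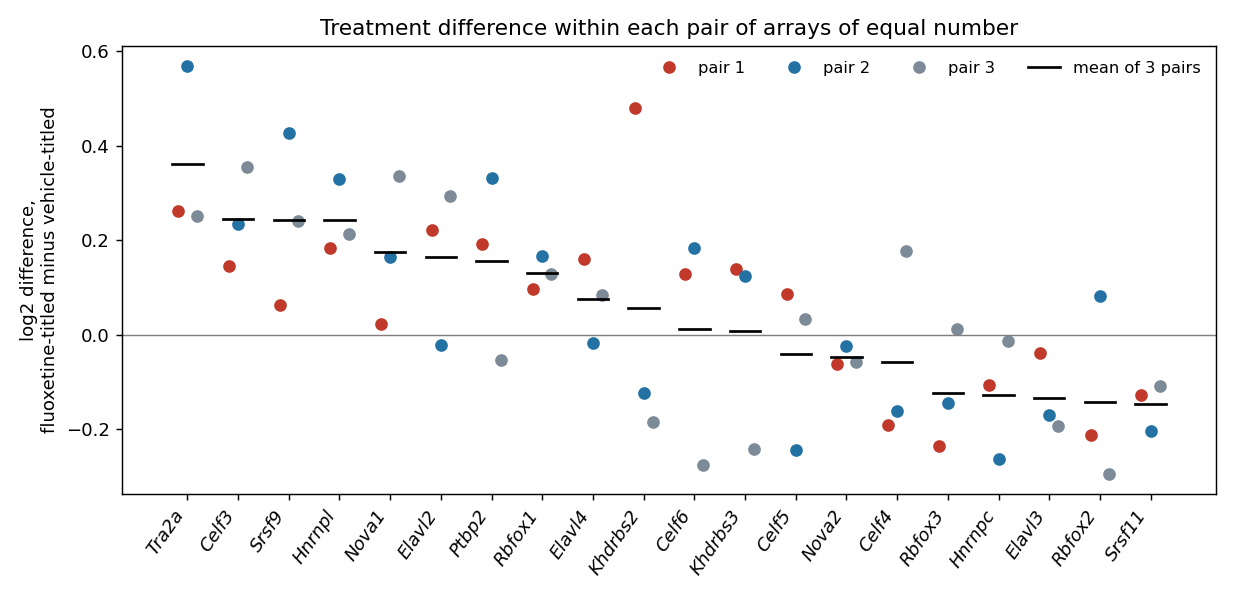
Log2 difference, fluoxetine-titled minus vehicle-titled (vertical axis), within each pair of arrays of equal number for the 20 members named in this comparison (horizontal axis), as points, with a bar at the mean of the 3 pairs. Tra2a, Celf3, Srsf9, Hnrnpl, Nova1 and Rbfox1 lie above 0 in all 3 pairs and Nova2, Hnrnpc, Elavl3 and Srsf11 below it, while Khdrbs2 ranges from -0.18 to 0.48.

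Over all members, 10 of 53 (18.9%) were higher in all 3 pairs, against 10.9% of genes, and 5 (9.43%) were lower in all 3, against 13.1% of genes. The values of 2 members, Hnrnpk and Srsf1, were all higher on the fluoxetine-titled arrays with no overlap, against 1.63% of genes, and 0 members were lower without overlap, against 1.98% of genes. Both are named after their values were seen. Hnrnpk, whose protein binds C-rich RNA, had 28779, 31026 and 28895 on the fluoxetine-titled arrays, against 28173, 26497 and 26643 on the vehicle-titled arrays, which differed by 0.13 ± 0.12 on the log2 scale. Its further probe sets had -0.0082, -0.060 and 0.11. Srsf1, the gene of the SR protein also called SF2/ASF, had 5453, 4805 and 4739 on the fluoxetine-titled arrays, against 4085, 4172 and 4524 on the vehicle-titled arrays, a difference of 0.23 ± 0.13 with an interval from -0.072 to 0.53. Its unadjusted p in limma, 0.115, was the smallest of any member. The difference was 0.42, 0.20 and 0.067 in pairs 1, 2 and 3, and a further 3 of its 6 kept probe sets were positive and 2 negative. For Hnrnpdl the groups did not overlap on 2 further probe sets, which had differences of 0.30 and 0.25, but they did on the probe set of highest mean (-0.015). Nor did they overlap on further probe sets of Hnrnpk (1454692_x_at, 0.11) and Hnrnpa2b1 (1434047_x_at, 0.077). These observations too were made after the values were seen. The share of all further probe sets without overlap is not given here, so they are not read as a result about the members. No further probe set differed from the probe set of highest mean of its gene in its treatment difference, with 0 of 81 for members and 0% of 6696 for all genes at an adjusted p under 0.05 in limma, and 1 of the 81, a Hnrnpdl probe set, had an unadjusted p under 0.05. The share of all 6696 at that unadjusted threshold is not given here.

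The neuron-enriched members had treatment differences on both sides of 0. Among the neuronal Hu genes, Elavl2 had 0.16 ± 0.16 and Elavl4 0.076 ± 0.15, beside the negative value of Elavl3. Among the Rbfox genes, Rbfox1 had 13894, 13710.1 and 11714 on the fluoxetine-titled arrays, against 12990.0, 12221 and 10714 on the vehicle-titled arrays, which differed by 0.13 ± 0.14 on the log2 scale. It was higher in all 3 pairs, but its further probe sets had -0.078 and -0.21. Rbfox3 had 11972, 11696 and 12524 on the fluoxetine-titled arrays, against 14092, 12930.4 and 12424 on the vehicle-titled arrays, a difference of -0.12 ± 0.12. Nova1, whose protein controls exons of synaptic genes, had 0.17 ± 0.14 and was higher in all 3 pairs, and Nova2 had -0.047 ± 0.22 and was lower in all 3. Celf4, Celf5 and Celf6 had -0.057 ± 0.15, -0.040 ± 0.13 and 0.013 ± 0.19. The STAR family genes Khdrbs2 and Khdrbs3, which regulate neurexin exons, had 0.057 ± 0.18 and 0.0082 ± 0.16, and Ptbp2, the neuronal polypyrimidine tract gene, had 0.16 ± 0.14. The 95% interval of every one of these members contained 0. On the probe sets of opposite sign, the differences were -0.078 for Elavl2, -0.0072 for Elavl4 and 0.038 for Celf4.

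By family, treatment differences were small on both sides. The 19 Hnrnp genes had a median of 0.013 and ran from -0.13 (Hnrnpc) to 0.24 (Hnrnpl), 11 of them positive. The 10 Srsf genes had a median of 0.022 and ran from -0.15 to 0.24, with 5 on each side. The 6 Celf genes had a median of 0.014, with 4 positive. Several members that act in most cells had nearly level values, and the following examples were chosen after the values were seen. Hnrnpa2b1, whose protein sorts and splices many messages, had 8050.1, 7843 and 8101 on the fluoxetine-titled arrays, against 8001, 7562 and 8229 on the vehicle-titled arrays. Hnrnpu, the gene of a nuclear scaffold protein, had 5464, 5351 and 5236 on the fluoxetine-titled arrays, against 5235, 5555 and 4999 on the vehicle-titled arrays. Elavl1, the ubiquitous Hu gene, had 381, 345 and 372 on the fluoxetine-titled arrays, against 372, 347 and 359 on the vehicle-titled arrays. On these probe sets of highest mean all 3 overlapped between the groups, and their log2 differences were 0.013, 0.025 and 0.026, in that order. The groups did not overlap on the further Hnrnpa2b1 probe set named above. The muscleblind genes Mbnl1 and Mbnl2 had 0.12 ± 0.16 and -0.0070 ± 0.17, and Ptbp3 had -0.071 ± 0.12.

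Marker lists of cell types had median treatment differences on both sides of 0, and 0 markers passed the adjusted threshold in limma, where 1, the mural gene Acta2, had an unadjusted p under 0.05. Layer 5 markers were positive in 2 of 9 (median -0.088), with sums of 41291 to 52593 on the fluoxetine-titled and 44259 to 56936 on the vehicle-titled arrays. Excitatory neuron markers were positive in 4 of 6 (median 0.032). All 12 astrocyte markers had a positive treatment difference, with a median of 0.26. Their summed intensity was 51972 to 61169 on the fluoxetine-titled arrays and 37536 to 63445 on the vehicle-titled arrays, lowest on vehicle array 3. Microglia markers were positive in 6 of 7 (median 0.20), with sums of 2046 to 2912 on the fluoxetine-titled and 1248 to 3259 on the vehicle-titled arrays. Oligodendrocyte lineage markers were positive in 8 of 10 (median 0.13) and interneuron markers in 6 of 9 (median 0.10), and the sums of both lists overlapped between the titles. The 5 vessel markers were all positive (median 0.40), with sums of 4240 to 5585 on the fluoxetine-titled and 3634 to 4795 on the vehicle-titled arrays. Within each list, the median log2 value was also taken on every array, relative to each marker's mean over the 6 arrays. Vehicle array 3 was lowest for astrocytes (-0.69), microglia (-1.01), oligodendrocyte lineage (-0.46) and interneurons (-0.47). Layer 5, excitatory neuron and vessel markers were lowest on other arrays. The part of these marker lists in the members' treatment differences was not tested.

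The arrays numbered 1 differed from the other 4 in both directions within these families. With the title as a covariate, 8 of 53 members (15.1%) passed an adjusted p of 0.05 in limma, against 12.8% of all genes. Higher on the number 1 arrays were 3 members, against 5.92% of genes, and lower were 5, against 6.86% of genes. The shares of members lie near those of all genes. This contrast was chosen with an earlier result of these data known, the separation of the number 1 arrays, so its calls describe that separation and are not independent of it. The members' median difference was 0.044, against 0.037 over all genes, with 32 members positive and 21 negative. Both number 1 values lay above the other 4 for 11 members, against 24.4% of genes, and below them for 11, against 19.9% of genes. The number 1 difference did not itself differ between the titles at an adjusted p under 0.05 for any member (0 of 53, against 0% of genes), and 0 members had an unadjusted p under 0.05 in that limma test.

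Among the hnRNP genes, Hnrnph1 was lower and Hnrnpll higher on the number 1 arrays. Hnrnph1, whose protein binds G-rich elements, had 2028 and 2577 on the number 1 arrays, against 4719.8, 6039.7, 4302 and 4766 on the other 4. The highest number 1 value was well below the lowest of the others. The log2 difference was -1.10 ± 0.18 (SE, n = 2 against 4), 2.15-fold lower, with adjusted p = 0.00802 in limma. A further Hnrnph1 probe set, at 111 to 127 on all 6 arrays, had a difference of -0.023. Hnrnpll, best known as the regulator of CD45 splicing in lymphocytes, had 4937 and 5166 on the number 1 arrays, against 3259.8, 3722, 3368 and 3273 on the other 4. The difference was 0.57 ± 0.12, 1.49-fold higher, with adjusted p = 0.0221 in limma, and its further probe set had 0.36. Hnrnph3 had 0.41 ± 0.12 and just missed the threshold (adjusted p = 0.0568 in limma, and 0.0444 with the replicate block, which it passed).

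Among the SR genes, Srsf4 was lower and Srsf12 higher on the number 1 arrays, and Tra2a was higher too. Srsf4 had 801 and 937 on the number 1 arrays, against 1353, 1661, 1347 and 1281 on the other 4. All 4 other arrays were above both. The difference was -0.70 ± 0.15, 1.62-fold lower (adjusted p = 0.0231 in limma). Srsf12, a less studied SR gene, had 689.6 and 542 on the number 1 arrays, against 362, 387, 291 and 419 on the other 4. The difference was 0.76 ± 0.17, 1.69-fold higher (adjusted p = 0.0251 in limma). Tra2a had 3505 and 2925 on the number 1 arrays, against 2719, 2460.2, 1835 and 2066 on the other 4. The difference was 0.51 ± 0.12, 1.43-fold higher (adjusted p = 0.0332 in limma), while its relative Tra2b had 0.20 ± 0.12 (adjusted p = 0.270 in limma). Srsf10, with 0.53 ± 0.15, just missed the threshold (adjusted p = 0.0533 in limma, and 0.0497 with the replicate block, which it passed).

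Neuronal Elavl3 and Nova2, and the more widely expressed STAR gene Khdrbs1, were lower on the number 1 arrays. Elavl3 had 852 and 875 on the number 1 arrays, against 1217, 1199, 1369.8 and 1369 on the other 4. The number 1 values were close to each other, as were the other 4. The difference was -0.57 ± 0.11, 1.49-fold lower (adjusted p = 0.0173 in limma), and its further probe sets had -0.62 and -0.56. Nova2 had 321 and 335 on the number 1 arrays, against 469, 469, 477 and 488 on the other 4. The difference was -0.54 ± 0.11, 1.45-fold lower (adjusted p = 0.0202 in limma), and no further probe set reached the filter. Khdrbs1, which encodes the signalling-regulated splicing factor Sam68, had 6978 and 7408 on the number 1 arrays, against 9306, 9676, 9765 and 9635 on the other 4. The difference was -0.42 ± 0.11, 1.33-fold lower (adjusted p = 0.0458 in limma), and all 4 of its further probe sets were negative. The Khdrbs1 probe set shown carries the suffix that the array's makers give to probes shared with other transcripts, so its value may hold signal of related sequences.

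**Figure D2:**
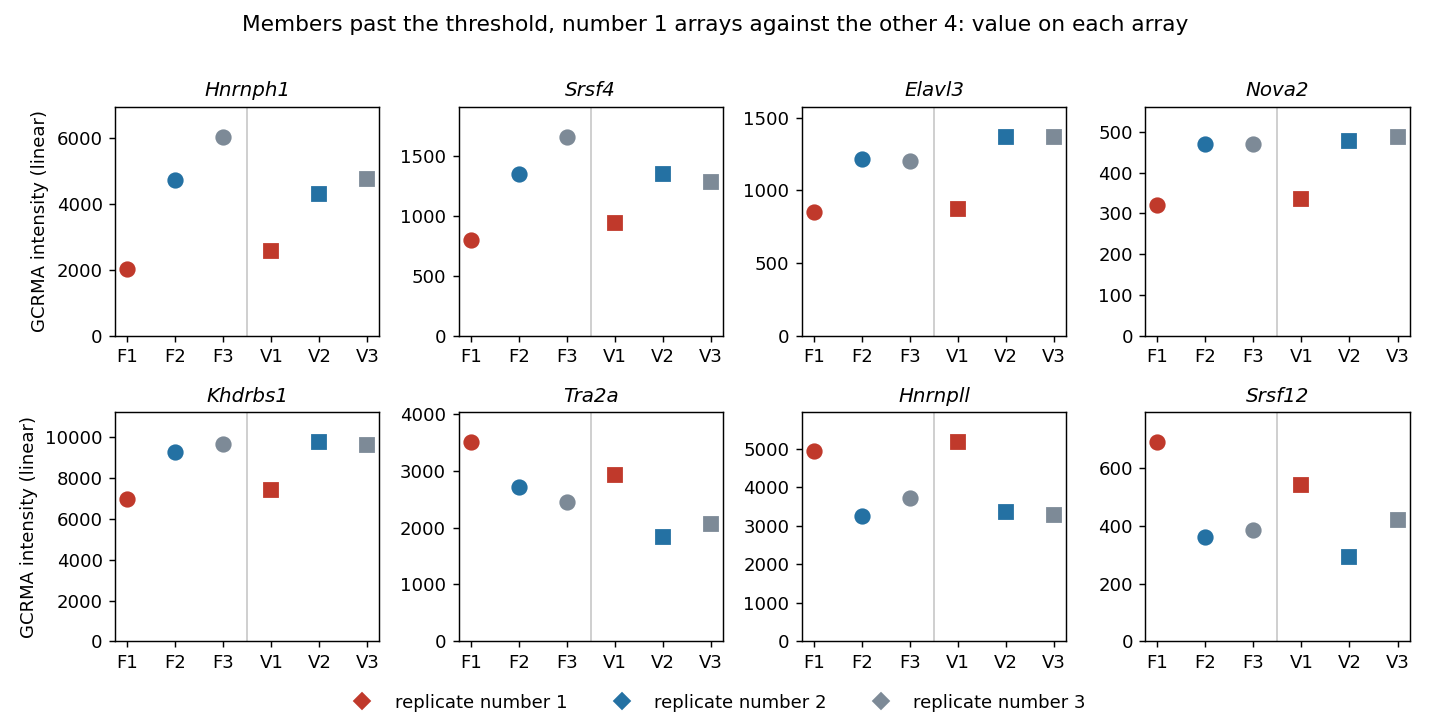
Linear GCRMA intensity (vertical axes, from 0) of the 8 members past the adjusted threshold on each of the 6 arrays (horizontal axes, F fluoxetine-titled as circles and V vehicle-titled as squares), with replicate number 1 in red. The 2 red points lie below the other 4 for Hnrnph1, Srsf4, Elavl3, Nova2 and Khdrbs1 and above them for Tra2a, Hnrnpll and Srsf12.

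These calls rest on few arrays. The fit took arrays of equal number as independent, so its p-values do not measure the spread between replicate numbers. Without the number 1 array of the fluoxetine-titled group 0 members passed, and without that of the vehicle-titled group 1 did (Hnrnph1); in both cases a lone number 1 array was taken to vary like the others. Without fluoxetine array 2 or fluoxetine array 3 there were 3 members each, and without both number 2 arrays 2 (Hnrnph1 and Srsf4). Without vehicle array 2 there were 6, without vehicle array 3 there were 10, and without both number 3 arrays 8. With no filter on dim probe sets there were 4 (Elavl3, Hnrnpll, Khdrbs1 and Nova2). The shares of all genes under these settings are not given here, so the counts are not read as a result about the members. The sign of the 8 differences did not change under any of the 14 alternatives run for each.

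Start-site windows are printed for 4 called members, 2 lower and 2 higher on the number 1 arrays, each of which passed the test on its own. They are the 4 of the 8 for which the RefSeq table of GRCm38.p6 lists 1 start, given 5′ to 3′ on the gene's strand from 250 bases before to 50 after it. Capitals mark matches, on either strand, to any of 4 motifs. The half-site of the cAMP response element was searched as TGACG. The core promoter box known as TATA was searched as TATAAA. The element bound by nuclear factor Y was searched as CCAAT. The element bound by Sp1 was searched as GGGCGG. A match is a description of the letters and not of a bound site.
Elavl3, lower, chr9:22051974-22052273, minus strand: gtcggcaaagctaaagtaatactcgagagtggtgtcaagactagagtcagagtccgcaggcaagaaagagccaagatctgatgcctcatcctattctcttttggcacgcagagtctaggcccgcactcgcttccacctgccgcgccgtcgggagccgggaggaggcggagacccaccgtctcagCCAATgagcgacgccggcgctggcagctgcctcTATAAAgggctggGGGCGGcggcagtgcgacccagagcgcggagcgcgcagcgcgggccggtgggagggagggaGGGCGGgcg
Nova2, lower, chr7:18925638-18925937, plus strand: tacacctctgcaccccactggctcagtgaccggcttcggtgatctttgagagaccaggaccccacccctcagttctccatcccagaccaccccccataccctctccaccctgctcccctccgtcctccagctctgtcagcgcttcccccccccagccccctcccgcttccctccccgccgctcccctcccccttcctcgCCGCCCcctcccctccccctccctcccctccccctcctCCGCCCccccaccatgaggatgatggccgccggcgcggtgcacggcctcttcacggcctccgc
Srsf12, higher, chr4:33209022-33209321, plus strand: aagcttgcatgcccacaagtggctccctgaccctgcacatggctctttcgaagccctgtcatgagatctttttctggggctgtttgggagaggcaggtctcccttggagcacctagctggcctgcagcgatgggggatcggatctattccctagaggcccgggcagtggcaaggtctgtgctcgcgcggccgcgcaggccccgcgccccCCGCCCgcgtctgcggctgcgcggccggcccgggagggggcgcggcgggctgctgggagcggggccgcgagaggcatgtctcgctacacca
Tra2a, higher, chr6:49264003-49264302, minus strand: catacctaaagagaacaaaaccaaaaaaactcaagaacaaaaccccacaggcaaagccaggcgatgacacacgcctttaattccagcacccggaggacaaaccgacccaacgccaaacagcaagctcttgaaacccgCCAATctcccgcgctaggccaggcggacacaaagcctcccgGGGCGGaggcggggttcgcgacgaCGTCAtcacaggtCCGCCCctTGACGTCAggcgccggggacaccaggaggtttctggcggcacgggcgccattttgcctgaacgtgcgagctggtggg
Each of the 4 windows held GGGCGG, which 35.7% of the 32851 windows of this length in the table hold. The Elavl3 window held TATAAA once, against 13.6% of windows, and the Elavl3 and Tra2a windows held CCAAT, against 37.4%. The Tra2a window held TGACG at 3 places, against 20.8% of windows with any, and a pair of these overlap within the palindrome TGACGTCA, which 1.79% of windows hold. Their GC contents were 65.33%, 71.33%, 69% and 60% in the order printed, with a median of 52.67% over all windows.

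Other neuron-enriched members did not pass in this contrast. Elavl2 had 4504 and 3861 on the number 1 arrays, against 3446, 3823, 3496 and 3120.4 on the other 4, a difference of 0.27 ± 0.12 (adjusted p = 0.176 in limma), and Elavl4 had 0.19 ± 0.13. The probe sets of highest mean thus placed Elavl2 and Elavl4 on the opposite side of 0 from Elavl3. Rbfox1 had 0.16 ± 0.13, Rbfox2 -0.23 ± 0.13 and Rbfox3 0.069 ± 0.12, and Nova1 had -0.11 ± 0.14. In the Celf family, Celf3 had -0.32 ± 0.12 and Celf6 -0.37 ± 0.14, with both number 1 values below the other 4, and Celf4 and Celf5 had 0.22 ± 0.13 and 0.044 ± 0.13. Khdrbs2 had -0.14 ± 0.18, Khdrbs3 0.053 ± 0.16 and Ptbp2 -0.12 ± 0.13. By family, the median difference was 0.028 over 19 Hnrnp genes, 0.14 over 10 Srsf genes, -0.13 over 6 Celf genes and 0.14 over 4 Elavl genes, and each of these families held members of both signs.

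**Figure D3:**
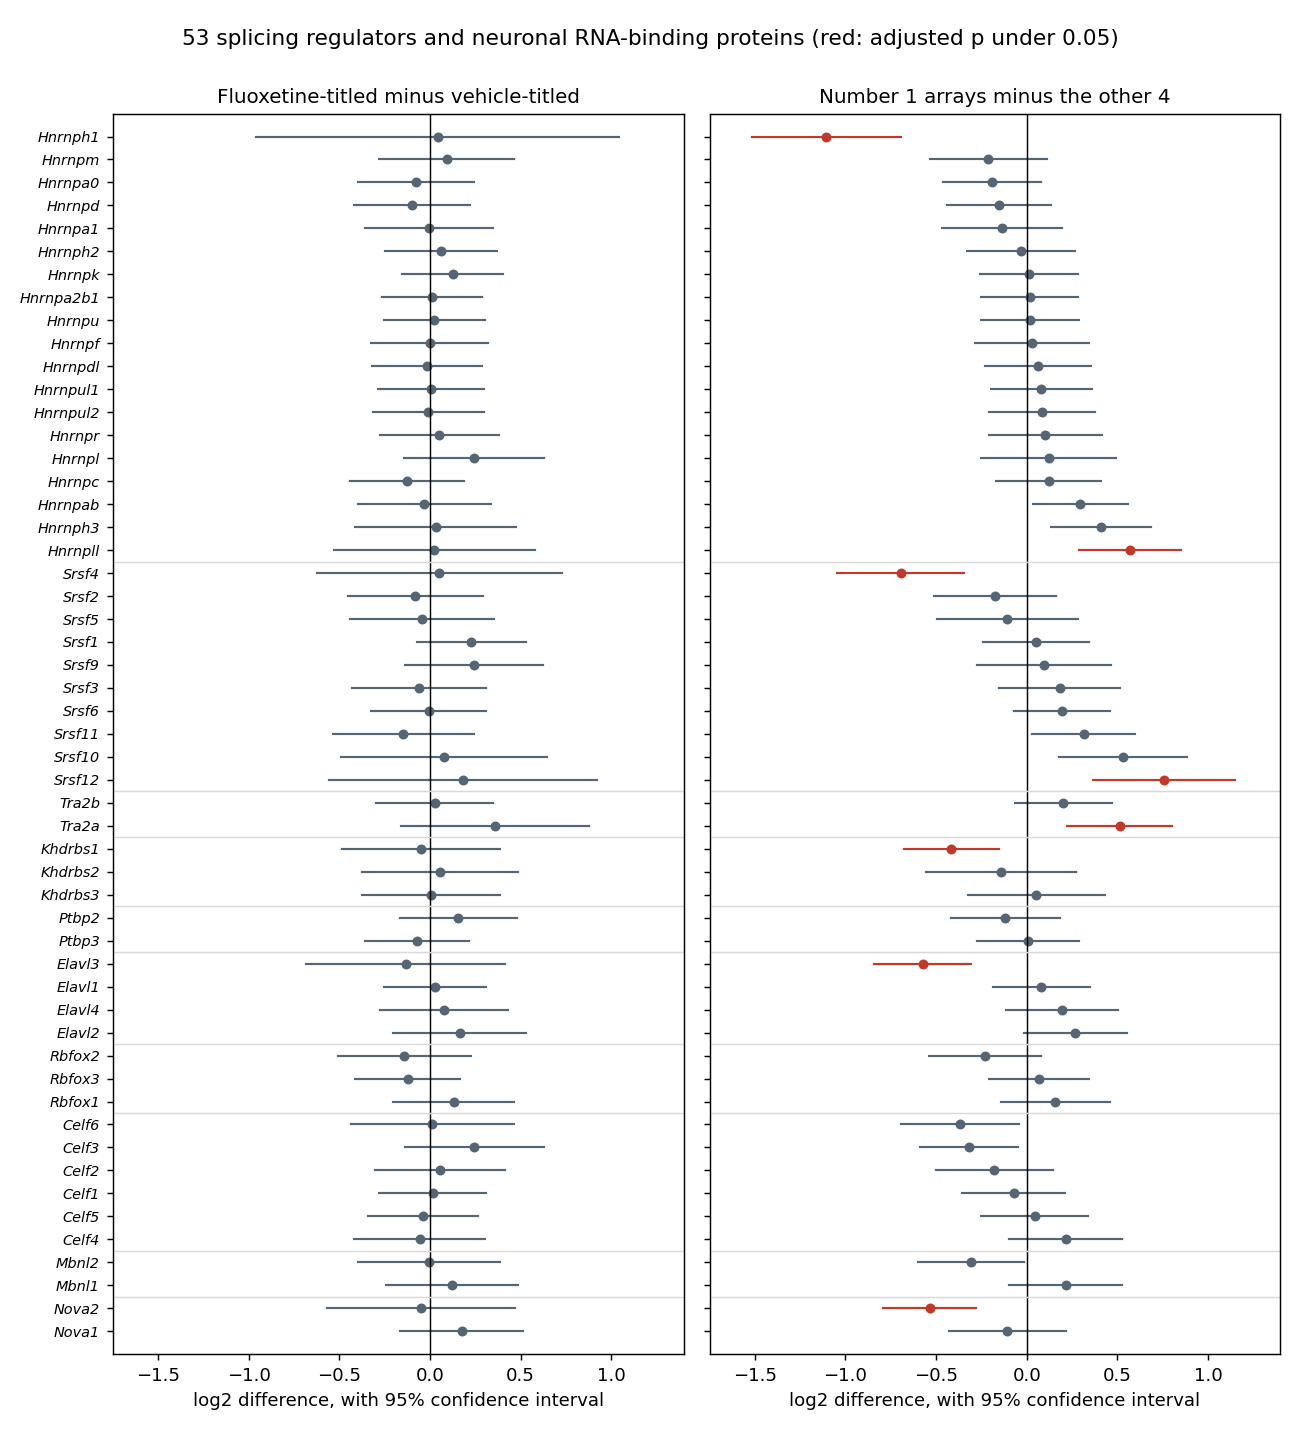
Log2 difference (horizontal axes) with its 95% confidence interval for all 53 members, by family (rows), fluoxetine-titled minus vehicle-titled on the left and number 1 arrays minus the other 4 on the right, with members past an adjusted p of 0.05 in red. No member is red on the left, and Hnrnph1, Hnrnpll, Srsf4, Srsf12, Tra2a, Khdrbs1, Elavl3 and Nova2 are red on the right.

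Different probe sets of the same member often disagreed about the number 1 arrays. Of the 180 probe sets of the 55 genes, 134 passed the filter, and 33 members had more than 1. Probe sets of 20 of these 33 (60.6%) had both signs, against 46.8% of 4406 genes with more than 1. Those of 1 of the 33, Hnrnpab, passed in both directions, against 1.11% of such genes. The 33 members held 81 further probe sets and the 4406 genes 6696. Members thus had more probe sets per gene, which by itself raises both of these shares. At least 1 probe set passed for 18 of 53 members (34.0%), against 21.1% of genes, compared with the 8 counted on the probe set of highest mean. More members than genes overall had over 1 probe set (33 of 53, against 4406 of 10830), which by itself raises that share. Of the 81 further probe sets, 5 were higher on the number 1 arrays, against 6.45% of 6696 for all genes, and 12 (14.8%) were lower, against 12.7%.

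The ratio of a further probe set to the probe set of highest mean, taken within each array, was also tested, a comparison added after the data were seen. It was lower on the number 1 arrays for 18 of 81 probe sets (22.2%), against 16.8% of 6696, and higher for 6, against 10.8%. The 24 belong to 18 genes. The probe set of highest mean is the brighter by construction, so a dim probe set is always set against a brighter one. Without fluoxetine array 1 the count was 12, without vehicle array 1 it was 9, and without the number 2 or the number 3 arrays it was 13 and 11.

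The widest gaps were in Hnrnpr and Elavl2. The Hnrnpr protein binds the beta-actin message in motor axons. On its probe set of highest mean (1427129_a_at) Hnrnpr had 4973 and 4570.2 on the number 1 arrays, against 4122, 4836, 4090.3 and 4763 on the other 4, a log2 difference of 0.10 ± 0.13. On 1452030_a_at it had 114 and 144 on the number 1 arrays, against 437, 436, 411 and 478 on the other 4, a difference of -1.77 ± 0.13 (adjusted p = 0.000827 in limma). On that probe set both number 1 values lay far below the other 4, while the brighter one had overlapping values. The ratio of the 2 probe sets differed by -1.88 ± 0.14 (adjusted p = 0.000738 in limma). Elavl2 was positive on 1421883_at, given above. On 1421881_a_at it had 164 and 146 on the number 1 arrays, against 412, 412, 506 and 442 on the other 4, a difference of -1.51 ± 0.14 (adjusted p = 0.00120 in limma). Its other 2 kept probe sets were negative too (-0.39 and -0.53). So 3 of 4 Elavl2 probe sets had negative differences, the side of Elavl3, and the brightest did not.

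Splits of the same kind were seen in Khdrbs1, Celf4, Rbfox3 and Rbfox1. On 1418628_at, Khdrbs1 had 123 and 96.2 on the number 1 arrays, against 329.7, 269, 282 and 283 on the other 4, a difference of -1.42 ± 0.14, beside -0.42 on the probe set of highest mean. The sign was shared and the size was not. Celf4 had -0.81 ± 0.15 on 1426929_at (adjusted p = 0.0129 in limma) and -0.30 on 1426930_at, beside 0.22 on the probe set of highest mean. Rbfox3 had -0.80 ± 0.13 on 1456149_at and -0.51 ± 0.13 on 1427286_at (adjusted p = 0.00965 and 0.0411 in limma), beside 0.069. In both genes at least 1 further probe set passed and the brightest did not. Rbfox1 had -0.40 and -0.52, beside 0.16, and Elavl4 had -0.29 on 1 of its further probe sets, beside 0.19.

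In Hnrnph1, Mbnl2, Srsf1, Srsf2, Rbfox2 and Elavl1 a further probe set had the more positive difference. The gap was widest in Hnrnph1, whose dim further probe set is described above. There the ratio differed by 1.08 ± 0.14 (adjusted p = 0.00316 in limma). The ratio differed by 0.73 ± 0.14 for Srsf2 (1415807_s_at) and 0.36 ± 0.10 for Elavl1 (1428653_x_at). Mbnl2 is a muscleblind gene whose protein shifts exons from fetal to adult forms. On 1455827_at it had 5876 and 5578 on the number 1 arrays, against 6512, 7439, 6831 and 7579 on the other 4, a difference of -0.31 ± 0.13. On 1433754_at it had 6778 and 5982 on the number 1 arrays, against 3664, 4248, 4019 and 4174 on the other 4, a difference of 0.66 ± 0.13 (adjusted p = 0.0158 in limma). Both of these probe sets were bright on every array. The ratio differed by 0.97 ± 0.10 (adjusted p = 0.00156 in limma). Srsf1 had 0.79 ± 0.19 on 1430982_at, beside 0.052, and Rbfox2 had 0.35 on 1434938_at, beside -0.23. Hnrnpab held both directions: 0.54 ± 0.13 and 0.58 ± 0.14 on 1415914_at and 1453849_s_at, against -0.86 ± 0.16 on 1426114_at. Where along the transcript each probe set lies was not analysed here.

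**Figure D4:**
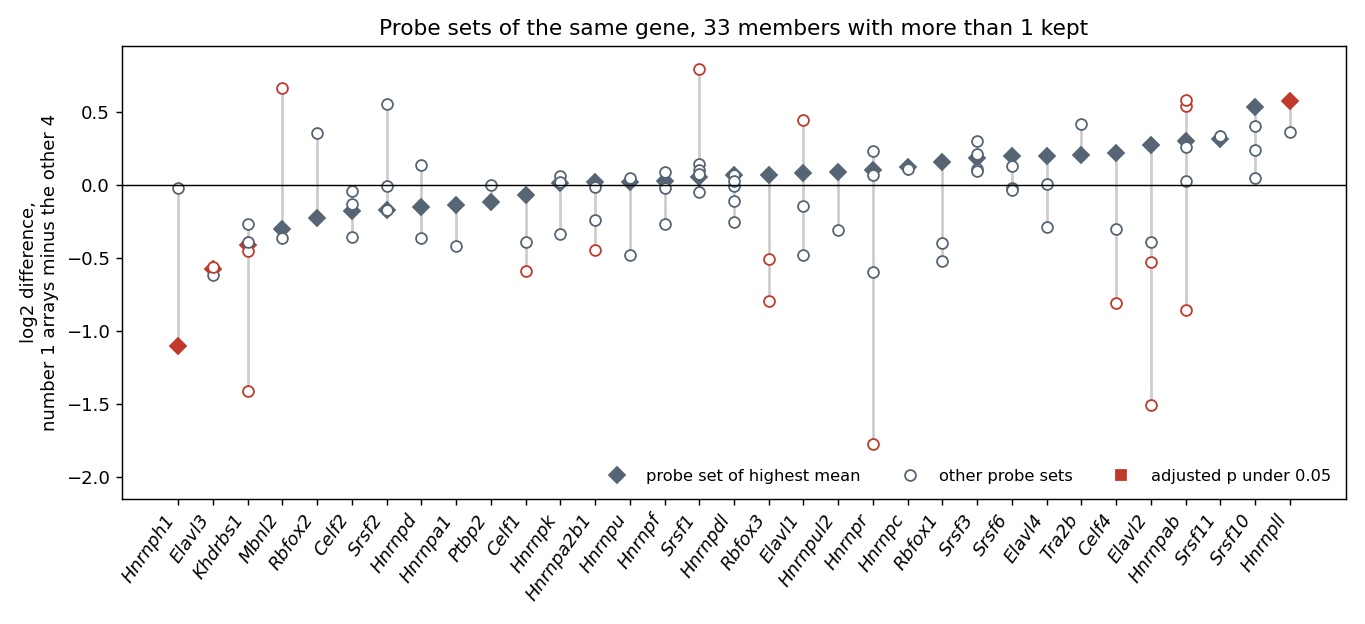
Log2 difference, number 1 arrays minus the other 4 (vertical axis), of every kept probe set of the 33 members with more than 1 (horizontal axis, sorted by the probe set of highest mean), with diamonds for the probe set of highest mean, open circles for the others and red for an adjusted p under 0.05. Open circles of Hnrnpr, Elavl2 and Khdrbs1 reach below -1.4, while those of Mbnl2 and Srsf1 reach above 0.6.

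Control probe sets along 2 housekeeping transcripts also separated the number 1 arrays in part. The log2 ratio of 3′ to middle probe sets of Actb was 2.17 and 2.28 on the number 1 arrays (fluoxetine-titled and vehicle-titled), against 1.81 to 1.95 on the other 4. The other ratios did not separate them. Actb 3′ over 5′ was 2.70 and 3.05 on the number 1 arrays and 2.91 to 3.08 on the other 4. Gapdh 3′ over middle was 0.68 and 0.76 on the number 1 arrays and 0.74 to 0.81 on the other 4, and Gapdh 3′ over 5′ was 0.88 and 1.25 on the number 1 arrays and 1.23 to 1.63 on the other 4. The part of transcript coverage in the members' differences was not tested.

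**Figure D5:**
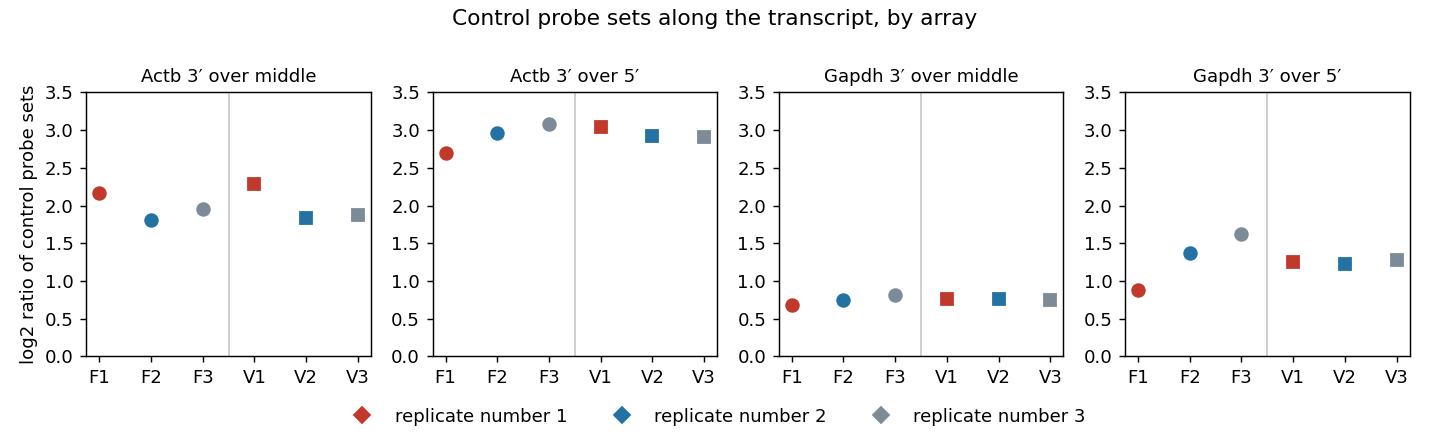
Log2 ratio of 3′ to middle and 3′ to 5′ control probe sets (vertical axes) of Actb and Gapdh on each array (horizontal axes, F fluoxetine-titled as circles and V vehicle-titled as squares), with replicate number 1 in red. The red points lie above the other 4 for Actb 3′ over middle, at 2.17 and 2.28, and among or below them in the other panels.

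Other genes of splicing and neuronal RNA binding, from lists chosen with earlier results of these data known, are given next for comparison, and 0 of them passed in the treatment comparison in limma, where 0 also had an unadjusted p under 0.05. Of 46 core spliceosome genes measured, 3 were higher and 3 lower on the number 1 arrays, against 5.92% of all genes higher and 6.86% lower, and the list median was -0.038. Higher were the small SF3b subunit genes Sf3b5 (1.07 ± 0.17) and Sf3b6 (0.75 ± 0.12) and the U1 gene Snrpc, and lower were Prpf8 (-0.70 ± 0.18), which encodes the scaffold of the catalytic core, the SF3a gene Sf3a2 (-0.68 ± 0.12) and the U5 helicase gene Snrnp200. Of 23 SR kinase and SR-related genes, 0 were higher and 3 lower in limma, against the same 5.92% and 6.86% of all genes, with a median of -0.12. At an unadjusted p under 0.05 these counts were 0 and 6, against 16.4% of all genes higher and 13.8% lower. Those past the adjusted threshold were Srrm2, Rbm25 and the SR protein kinase gene Srpk2 (-0.80 ± 0.13). Srrm2, the gene of a large nuclear speckle protein, had 2171 and 2919.5 on the number 1 arrays, against 7099, 8232, 6405 and 8251 on the other 4, a difference of -1.57 ± 0.17 (adjusted p = 0.00217 in limma). Rbm25 had 139.9 and 128 on the number 1 arrays, against 387, 313, 331 and 449 on the other 4, a difference of -1.46 ± 0.17 (adjusted p = 0.00265 in limma). For both, every number 1 value lay far below the other 4.

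Of 38 other neuronal RNA-binding protein genes, 2 were higher and 5 lower on the number 1 arrays, again against 5.92% and 6.86% of all genes, with a median of -0.084. The higher ones were Raly (0.69 ± 0.15), an hnRNP-like gene, and Cpeb2 (0.54 ± 0.11), and the lowest were Ewsr1 (-1.09 ± 0.24) and Cpeb3 (-0.99 ± 0.13). Cpeb2 and Cpeb3 encode related cytoplasmic polyadenylation element binding proteins and lay on opposite sides of 0. The medians of these 3 lists in the treatment comparison were -0.046, -0.033 and 0.0031. Nuclear noncoding RNAs, which should be scarce on ribosomes, had 3 of 4 measured. Malat1 had 50.2 and 129 on the number 1 arrays, against 349, 1691, 312 and 244 on the other 4 (adjusted p = 0.0579 in limma), with its highest value on fluoxetine array 3.

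Some markers of cell types also passed between the number 1 arrays and the others. Layer 5 markers had positive differences in 8 of 9 genes (median 0.19, 0 past the adjusted threshold in limma, 2 higher and 1 lower at an unadjusted p under 0.05), and their sums, given above, did not overlap. Excitatory neuron markers were positive in 1 of 6, and Slc17a7 (-1.10 ± 0.19) and Tbr1 (-0.55 ± 0.15) passed as lower. Their sums were 12553 and 12566 on the number 1 arrays and 12489 to 15379 on the others. Vessel markers were positive in 4 of 5, with sums of 4795 and 5585 on the number 1 arrays and 3634 to 4278 on the others, and Slc2a1 (0.50 ± 0.12) passed as higher. Astrocyte markers were positive in 8 of 12 (median 0.10), and Slc1a2 (-0.88 ± 0.20) passed as lower. Oligodendrocyte lineage markers were positive in 1 of 10 (median -0.12), and Sox10 (-0.90 ± 0.24) and Cspg4 (-0.96 ± 0.12) passed as lower. Microglia markers were positive in 6 of 7 (median 0.50) and interneuron markers in 5 of 9 (median 0.15), with 0 past the adjusted threshold in limma and, at an unadjusted p under 0.05, 1 higher and 1 lower microglia marker and 1 higher interneuron marker. The sums of these 4 types overlapped. Astrocyte sums were 56116 and 57943 on the number 1 arrays and 37536 to 63445 on the others, interneuron sums 24130 and 25321 on the number 1 arrays and 19774 to 29316 on the others, and oligodendrocyte lineage sums 27420 and 27669 on the number 1 arrays and 20528 to 37554 on the others. Microglia sums were 2792 and 3259 on the number 1 arrays and 1248 to 2926 on the others. The part of these markers in the members' differences was not tested.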

How the data were processed

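The data are 6 Affymetrix mouse arrays of TRAP RNA from cortex, 3 per title group, made per the labels' protocols from 15 ng of RNA in 2 rounds of amplification with biotin labelling. The deposited values are linear intensities, 1 for each probe set on each array, normalized with GCRMA per the submitters' processing notes. No GCRMA version is given in the sources used here. The design text speaks of averaged replicates, but the table holds 1 column per array. It also names an S100a10 transgene and a table of probe sets to keep, which is not used here.

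The table holds 45101 probe sets. After removal of 64 controls, the 19073 whose mean reached 50 in 1 or both title groups were kept, following the filter of 50 that the submitters recommend, whose wording allows other readings. The platform annotation gives a single symbol for 34945 probe sets, several for 932 and none for 9160. All 55 member symbols matched RefSeq (GRCm38.p6) and 0 changed. Intensities of different probe sets share no scale, so levels are compared within a probe set.

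The limma package (3.58.1, under R 4.3.3) was used to fit log2 intensities (lmFit, eBayes, two-sided), and p-values were adjusted by Benjamini-Hochberg across the kept probe sets, for fluoxetine-titled minus vehicle-titled arrays and for number 1 arrays minus the other 4 with the title as covariate. P-values of the treatment comparison measure the spread between purifications. For number 1 against the other 4, the fit took purifications of equal number as independent. Those p-values do not measure the spread between replicate numbers and may be too small, with or without the replicate block. Arrays correlated at 0.973 to 0.994, and no pair had an SD of its log2 differences under 0.232, so none was taken for a repeat of another. The titles' replicate numbers pair the arrays: deviations from the group means correlated at 0.74, 0.60 and 0.50 for arrays of equal number, and between -0.59 and 0.26 otherwise. The fitting code was tested on simulated arrays with known changes and independent noise. That test did not cover the correlation between arrays of equal number.

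Named members are those past the adjusted threshold for number 1 (up to 10 each way), the 4 highest and 4 lowest in the treatment comparison, and the neuron-enriched Elavl, Rbfox, Nova, Celf, Khdrbs and Ptbp genes. From each other list of genes up to 2 called genes each way are given with values, Srpk2 and the remaining called spliceosome genes being named beyond that rule. The members, the gene lists, the number 1 contrast and these rules were chosen with earlier results of these data known. Alternatives were a replicate block, no title term, quantile normalization, other filters and floors, other probe sets per gene, and leaving out arrays. The within-gene ratio of probe sets and the interaction of title and number were added after the data were seen.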

Additional observations from a re-analysis of the deposited data

How the results depend on the processing

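The treatment comparison gave 0 members and 0 probe sets past the adjusted threshold under every alternative run, the replicate block included, and the members' median stayed between -0.00092 and 0.044. For number 1 against the other arrays, the 2910 probe sets and 8 members became 4106 and 10 with the replicate block. The block added Hnrnph3 and Srsf10, lost none of the 8 and changed the call of no other member. Calls thus rose over all kept probe sets as well, and the share of all genes under the block is not given here. With no filter on dim probe sets there were 1698 probe sets and 4 members. The members' median of 0.044 became -0.0059 under quantile normalization, -0.0082 with the probe set of second highest mean and -0.031 with the median of all probe sets of a gene, so its sign depends on these choices. With arrays left out it lay between -0.0015 and 0.065, the probe sets between 279 and 3882, the members between 0 and 10, and the probe sets that differed from the brightest of their gene between 9 and 18, against 24 with all arrays and 21 with the block. The lowest counts of probe sets and of members came without fluoxetine array 1 or vehicle array 1, where a single number 1 array is left. The cause of these changes was not tested, except that fewer arrays were fitted where arrays were left out. Over the 8 called members, 39 of 112 values under alternatives lost the call and 0 changed sign. Over the named members that did not pass, 9 of 182 values for number 1 and 23 of 280 for the treatment changed sign. With 3 arrays per group the median standard error of a member's treatment difference was 0.15 (0.11 with the block).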
